A study of Mus musculus with 12 samples.

Results

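A set of 10 genes of BMP signalling was followed in mouse medulloblastoma, a tumour of the cerebellum: the target genes Id1, Id2, Id3 and Id4, the ligand genes Bmp4 and Bmp7, the receptor genes Bmpr1a and Bmpr1b, and the inhibitory Smad genes Smad6 and Smad7. They were taken by symbol from the 15672 genes of the deposited end point table, which held all 10, and all 10 passed the filter on low values that left 14126 genes for testing. SG tumours were labelled fSMO-M2;hGFAPcre. They express SMO-M2, a constantly active Smoothened, the membrane protein that passes on Hedgehog signals, after recombination by a Cre driven by the human GFAP promoter, which is active in neural stem cells and their progeny. YSGr tumours, labelled fYap1;fSMO-M2;hGFAPcre and described as rescued, carried a floxed Yap1 allele besides, so both groups share the SMO-M2 driver and the Cre. All libraries were of end point tumour tissue. The labels give no age, strain or treatment and no animal number. There were 3 libraries each of SG males (numbered 1 to 3), SG females (4 to 6), YSGr males (7 to 9) and YSGr females (10 to 12). Nothing states that they came from separate animals, so p-values measure the spread between these libraries, which may be technical in part.

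Bone morphogenetic proteins such as BMP4 and BMP7 bind type I receptors, among them BMPR1A and BMPR1B, together with type II receptors. The type I receptor phosphorylates SMAD1, SMAD5 and SMAD9, which enter the nucleus with SMAD4 and switch on target genes. Id1, Id2 and Id3 are among the best known of these targets, and Id proteins bind E proteins and so keep bHLH transcription factors off DNA. Smad6 and Smad7 are targets too and feed back on the receptors. In the cerebellum, BMPs are known to curb the Hedgehog-driven division of granule neuron progenitors, the cells from which this type of medulloblastoma arises.

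Of the 10 genes, 7 had an entry in the RefSeq promoter table (build GRCm38.p6), which was read over the 250 bases before each start site. The Id4 window, chr13:48260866-48261115 on the plus strand, is shown because Id4 varied most between YSGr libraries and because it held 2 of the 3 motifs searched. Capitals mark CATTCC, the core of the TEAD motif through which YAP1 partners bind DNA, 226 bases before the start site, and GGCGCC, a GC-rich element bound by SMAD1 and SMAD5, 148 bases before it.
Id4: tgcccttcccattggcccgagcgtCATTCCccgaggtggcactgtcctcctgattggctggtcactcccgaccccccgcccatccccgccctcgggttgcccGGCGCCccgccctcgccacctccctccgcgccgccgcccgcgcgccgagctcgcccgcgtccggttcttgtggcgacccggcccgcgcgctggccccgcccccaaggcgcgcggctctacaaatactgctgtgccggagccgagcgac

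Both strands were searched, and the 2 matches do not overlap. GGCGCC also lay in the windows of Id2 and Bmpr1a, and CATTCC in that of Id3. GENCODE M21 places an exon of the same strand over all 250 bases of the Id3 window, 161 bases of the Id2 window and 141 bases of the Bmpr1a window, so these matches may lie in transcribed sequence. No exon of its strand overlaps the Id4 window. The E-box CANNTG lay in the windows of Id2, Bmp4 and 2 of the 3 Bmpr1b entries. An exon of the same strand covers 103 bases of the Bmpr1b window chr3:141931421-141931670. Its E-box and that of Id2 may therefore lie in transcribed sequence too. The Smad6 window held none of the 3 motifs. Of all 32851 promoter windows of this length, 9.59% held GGCGCC, 12.6% CATTCC and 66.2% CANNTG. A match is a description of the letters, not of binding.

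The libraries held 8854765 to 9478650 estimated reads. Yap1 was at 4.29 to 4.80 log2 CPM (the log2 of reads scaled to a common library size) in SG and at -0.02 to 1.82 in YSGr, without overlap, as the labels have it. Within YSGr, males were at 0.73 to 1.82 (14 to 33 reads) and females at -0.02 to 0.55 (7 to 12 reads), also without overlap (20.9% of all genes). The female minus male difference there was -1.18 (limma unadjusted p = 0.0013, adjusted p = 0.14). The genotype effect in females minus that in males was -1.36 (unadjusted p = 0.0051, adjusted p = 0.43). When limma estimated how far each library lay from its group, 4 libraries received low weights: SG male 2 (0.102), YSGr female 11 (0.270), YSGr male 8 (0.275) and YSGr female 12 (0.417), against 0.837 to 3.33 for the others. YSGr male 8 also had a summed oligodendrocyte marker level of 9407 CPM, against 879 to 2717 CPM in the other 11 libraries. Progenitor markers of the tumour were abundant everywhere, with 3543 to 3968 CPM summed over 8 genes in SG and 2524 to 3923 CPM in YSGr. No marker of any of the 8 cell type lists was at 0 in all libraries.

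Levels per kilobase of exon were compared between the 10 genes in SG, where n is 6. Id2 stood highest at 39.6 ± 2.24 CPM per kilobase (SD), and its range did not reach that of Bmpr1a, which followed at 18.5 ± 3.17. Id3 at 13.9 ± 2.32, Id1 at 13.1 ± 2.49 and Id4 at 9.02 ± 2.13 came next, with ranges that overlapped from Bmpr1a to Id3, Id3 to Id1 and Id1 to Id4. Thus 3 of the 4 Id genes lay close together and Id2 lay apart. Bmp7 at 3.26 ± 0.613 lay below Id4 and above Bmpr1b (1.96 ± 0.488) without overlap. Smad7 (1.61 ± 0.250), Bmp4 (0.970 ± 0.612) and Smad6 (0.475 ± 0.128) formed the low end, each overlapping its neighbour. In YSGr the means kept this order with 2 exceptions, Id1 (14.9) above Id3 (12.6) and Smad7 (2.56) above both Bmp7 (2.05) and Bmpr1b (1.82). Within YSGr the ranges overlapped for each of these pairs. In SG, Smad7 (1.16 to 1.91) lay below Bmp7 (2.56 to 4.36) without overlap.

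The main comparison set YSGr against SG tumours, giving males and females equal weight. Bmp7, a ligand made by several cell types of the developing cerebellum and its coverings, fell, and it was the 1 gene of the 10 to pass the threshold (Benjamini-Hochberg adjusted p under 0.05 in limma). Its fold change was -0.72 on the log2 scale (SE 0.17, adjusted p = 0.020), or 1.64-fold lower, and 5 of 6 YSGr libraries lay below the SG mean. Over all genes tested 11.4% passed (6.17% higher, 5.27% lower), so 1 of 10 is near the background. The median fold change of the 10 genes was -0.13, and that of all genes tested was -0.0048 on the same scale. None of the 10 was free of overlap between the 6 SG and the 6 YSGr libraries, against 5.9% of all genes. The Bmp7 call was lost without SG female 5 (adjusted p = 0.053) or SG female 6 (0.054) and with sex left out of the model (0.055). Without SG male 2 and YSGr male 8 together, an alternative added after the data were seen, Bmp7 was again the 1 gene called, at -0.70 (adjusted p = 0.0096). With libraries weighted by limma, 5 of 10 passed (Id1, Id4, Bmp7, Bmpr1b and Smad7), and so did 4976 of the 14126 genes. In bulk tissue, fewer cells of a type and less RNA per cell cannot be told apart, here and below.

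**Figure D1:**
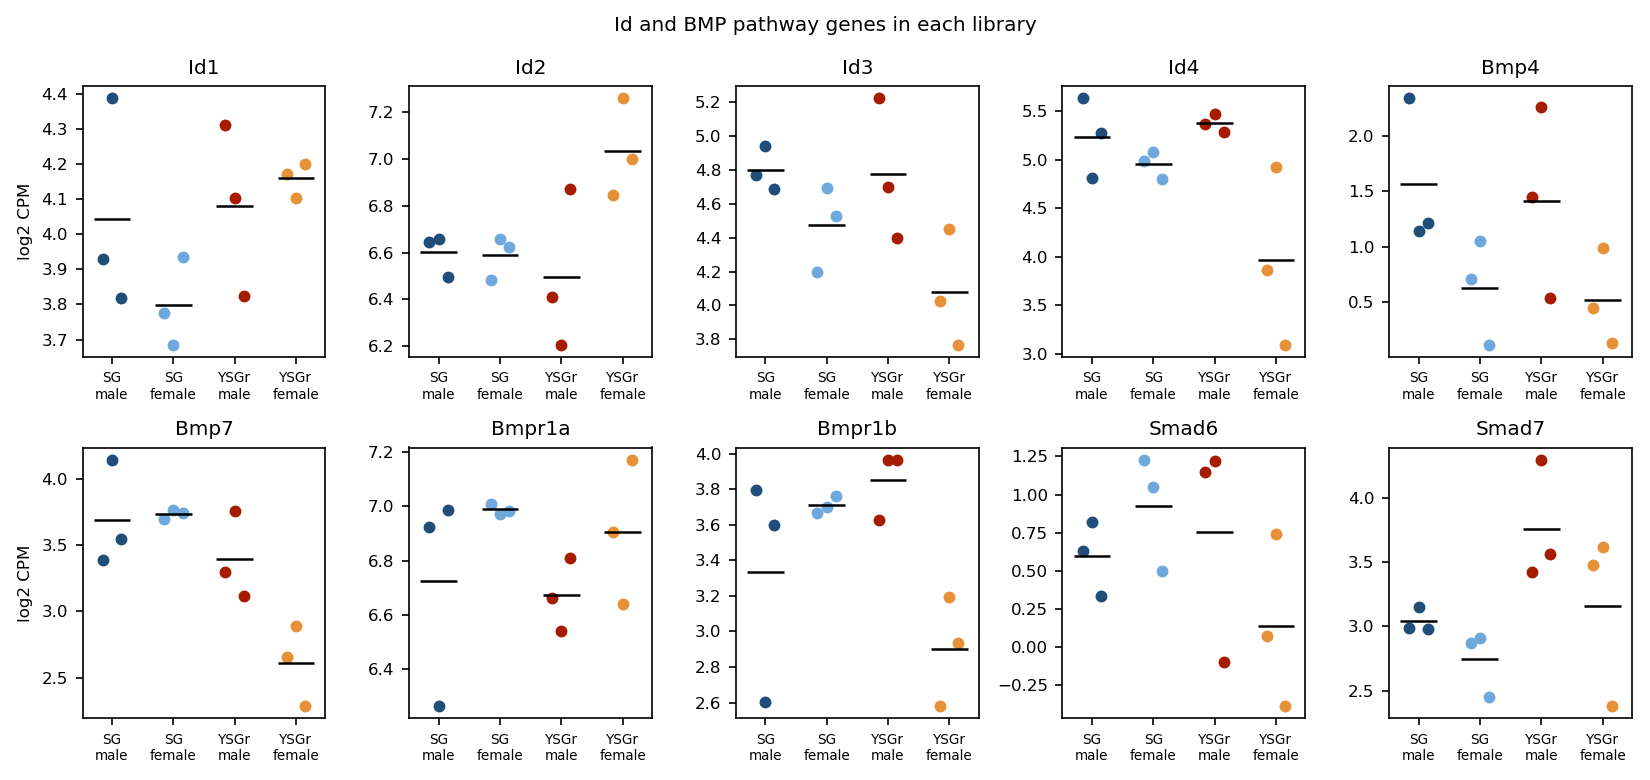
Log2 CPM of each of the 10 genes (vertical axis, own scale per panel) in the 12 libraries, by genotype and sex; each point is a library and each bar the mean of 3. Bmp7 lies between 2.28 and 2.89 in the YSGr females, below all 9 other libraries, and Id4 falls to 3.09 in 1 YSGr female.

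None of the 4 Id genes passed the threshold. Id1 was at 3.93, 4.39 and 3.82 log2 CPM in SG males and at 3.78, 3.69 and 3.94 in SG females. In YSGr it was at 4.31, 4.10 and 3.82 in males and at 4.17, 4.10 and 4.20 in females. The YSGr females thus lay above the SG females without overlap, whereas the males of the 2 genotypes overlapped. The fold change was 0.20 (SE 0.13, adjusted p = 0.35) with the sexes weighted equally and 0.36 (SE 0.19, adjusted p = 0.42) in females.

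Id2, the most abundant of the 4, hardly varied in SG, at 6.65, 6.66 and 6.49 log2 CPM in males and 6.48, 6.66 and 6.63 in females. YSGr males spread around this level, at 6.41, 6.21 and 6.87, and YSGr females were at 6.85, 7.26 and 7.00. All 3 YSGr females were above all 6 SG libraries. The fold change in females was 0.45 (SE 0.17, adjusted p = 0.21), in males -0.10 (SE 0.17, adjusted p = 0.70) and over both 0.17 (adjusted p = 0.36), none past the threshold.

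Id3 was at 4.69 to 4.94 log2 CPM in SG males and 4.20 to 4.69 in SG females. It was at 5.22, 4.70 and 4.40 in YSGr males and at 4.02, 4.45 and 3.77 in YSGr females. The groups overlapped in either sex, and the highest and the lowest of the 12 values were both YSGr libraries. The fold change was -0.21 (SE 0.16, adjusted p = 0.42) with the sexes weighted equally.

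Id4 (chromosome 13, 48261228 to 48266026, GENCODE M21 on mm10) showed the widest spread of the Id genes. It was at 5.63, 4.81 and 5.27 log2 CPM in SG males (480, 251 and 365 reads), and SG females were at 4.99, 5.08 and 4.80 (311, 307 and 253 reads). YSGr males were tightly placed at 5.37, 5.47 and 5.28 (410, 416 and 374 reads), whereas YSGr females were at 3.87, 4.93 and 3.09 (137, 290 and 75 reads). YSGr females 10 and 12 were below every SG library and YSGr female 11 lay within the SG range. The fold change was -0.43 (SE 0.25, adjusted p = 0.27) with the sexes weighted equally, and -0.99 (SE 0.35, adjusted p = 0.17) in females. These values rested on single libraries. Without YSGr female 12 they were -0.21 (adjusted p = 0.49) and -0.56 (adjusted p = 0.40), and without YSGr female 11 they were -0.67 (adjusted p = 0.030) and -1.48 (adjusted p = 0.0099), both past the threshold.

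The genes nearest to each Id gene were found by the root mean square difference of log2 CPM over the 12 libraries, after centring each gene on its mean. For Id4 they were Ttyh1 (0.19), Plpp3 (0.21) and Itih3 (0.23), where the median over all genes was 0.77. Of the other members, Id3 ranked 208, Bmpr1b 265, Bmp7 384, Smad6 478 and Bmp4 491 of 14125 by nearness to Id4, and Id1 and Id2 ranked 8284 and 11271. Those nearest to Id3 were Mlc1 (0.17), Foxj1 (0.18) and Gpr182 (0.19), with a median over all genes of 0.50. Id1 had Cfap36, Cox7b and Cox6c (0.12 each, median 0.37), and Id2 had Ppm1d (0.14), Lcmt2 and Zfp952 (0.15 each, median 0.39). No gene appeared in the nearest 3 of 2 Id genes. The 12 points share their libraries and scaling, and these ranks are descriptions.

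Of the ligands, Bmp7 (chromosome 2, 172868012 to 172940321) carried the change. SG females were nearly level at 3.70, 3.77 and 3.75 log2 CPM (126, 123 and 121 reads), and SG males were at 3.39, 4.15 and 3.55 (100, 158 and 109 reads). YSGr males were at 3.30, 3.76 and 3.12 (96, 126 and 82 reads), and YSGr females at 2.65, 2.89 and 2.28 (58, 69 and 42 reads). The YSGr females lay below all other libraries, and the males of the 2 genotypes overlapped. In females Bmp7 fell by 1.13 on the log2 scale (SE 0.25, adjusted p = 0.027), or 2.19-fold, in 3 of 3 libraries. In males the fold change was -0.30 (SE 0.25, adjusted p = 0.42). The call in females was lost without any of SG females 4, 5 and 6 or YSGr females 10 and 12, with adjusted p of 0.081 to 0.12.

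Bmp4, which like Bmp7 acts through the type I receptors, was low and scattered. It had 47, 18 and 20 reads in SG males, 14, 17 and 8 in SG females, 25, 43 and 12 in YSGr males and 11, 17 and 8 in YSGr females. The genotypes overlapped in both sexes. The fold change was -0.13 (95% interval -0.85 to 0.60, adjusted p = 0.83).

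The 2 type I receptors differed in their spread. Bmpr1a, the broadly expressed one, was at 6.92, 6.27 and 6.99 log2 CPM in SG males and at 6.97 to 7.01 in SG females. Values of 6.54 to 6.81 in YSGr males were followed by 6.64 to 7.17 in the females of that genotype. The fold change of -0.07 had a 95% interval of -0.36 to 0.22 (adjusted p = 0.77). Apart from SG male 2, which stood below all other libraries, the SG values lay close together at 6.92 to 7.01. The YSGr values spread more widely, from 6.54 to 7.17.

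Bmpr1b (chromosome 3, 141837136 to 142169425) was at 3.80, 2.61 and 3.60 log2 CPM in SG males and at 3.67, 3.70 and 3.76 in SG females. YSGr males were at 3.63, 3.96 and 3.96, and YSGr females at 2.58, 3.20 and 2.93. The YSGr females lay below the SG females without overlap, and 2 of the 3 YSGr males lay above every SG library. The fold change was -0.80 (SE 0.28, adjusted p = 0.17) in females and 0.52 (SE 0.28, adjusted p = 0.23) in males, and -0.14 (adjusted p = 0.67) over both. Without SG male 2, the library at 2.61, the value in females stayed at -0.80 and passed the threshold (adjusted p = 0.029), and the value in males was 0.15 (adjusted p = 0.66).

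Neither inhibitory Smad passed the threshold. Smad7, which blocks receptors of both the BMP and the TGF-beta branch, was at 2.99, 3.15 and 2.98 log2 CPM in SG males and 2.87, 2.91 and 2.45 in SG females. YSGr males were at 3.43, 4.29 and 3.56 and YSGr females at 3.48, 3.62 and 2.38. Thus 5 of 6 YSGr libraries were above every SG library and YSGr female 12 was below all of them. The highest value, 4.29, was in YSGr male 8, the library rich in oligodendrocyte markers. The fold change was 0.57 (SE 0.23, unadjusted p = 0.027, adjusted p = 0.12), and without YSGr female 12 it was 0.76 and passed (adjusted p = 0.018). The other 11 of 12 fits that each left out a library did not pass, with values down to 0.43 and adjusted p up to 0.26. Smad6, which acts mainly on BMP receptors, had 13, 14 and 10 reads in SG males, 21, 17 and 11 in SG females, 20, 20 and 7 in YSGr males and 8, 14 and 5 in YSGr females. Its fold change of -0.31 had a 95% interval of -0.96 to 0.34 (adjusted p = 0.52).

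**Figure D2:**
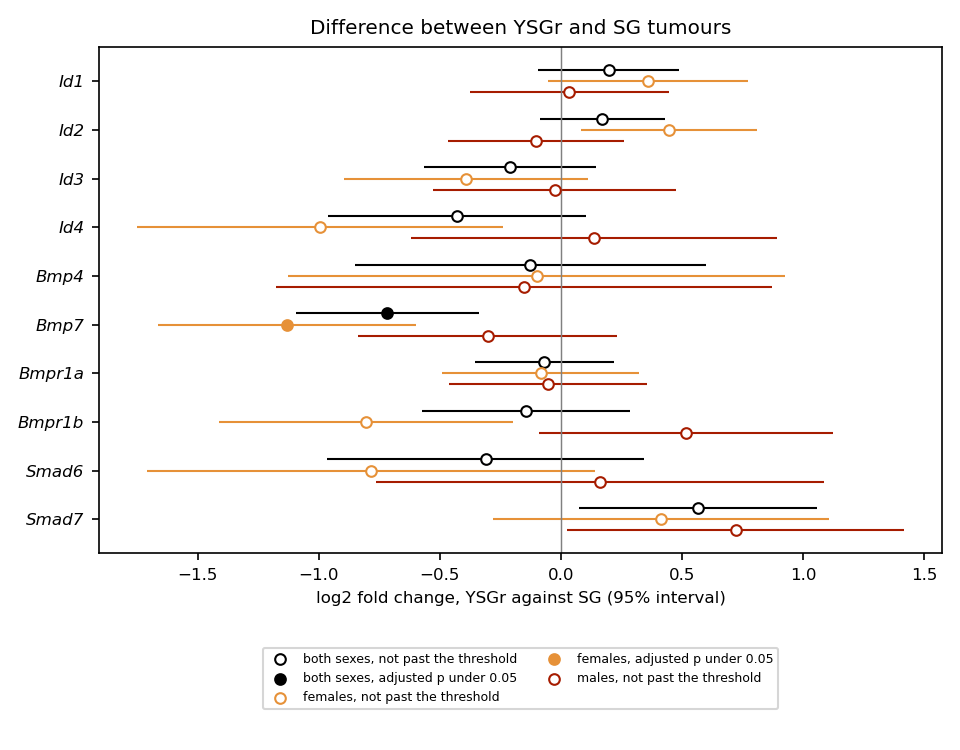
Log2 fold change of YSGr against SG (horizontal axis, with 95% intervals) for the 10 genes, over both sexes, in females and in males; filled points passed the adjusted p threshold. Bmp7 is the one gene with filled points, at -0.72 over both sexes and -1.13 in females, and the Bmpr1b estimates of the sexes sit on opposite sides of 0, at -0.80 and 0.52.

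Because the series is about sex differences, the genotype effect was also tested within each sex. In females Bmp7 was 1 of 10 to pass, where 3.02% of all genes did, and Id1, Id2, Bmp7 and Bmpr1b did not overlap between the genotypes (4 of 10, against 27.9% of all genes). With libraries weighted, 8 of 10 passed in females, all but Bmp4 and Bmpr1a, together with 4476 of all genes. In males none of the 10 passed, against 7.86% of all genes. Smad7 alone had an unadjusted p under 0.05 there, and it was also the 1 gene of 10 without overlap, where 29.9% and 34.4% of all genes did so. The median fold change of the 10 was -0.25 in females and 0.0048 in males, and that of all genes was 0.014 and -0.0079.

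The effect in females minus that in males was tested directly, and none of the 10 passed, against 0.00708% of all genes, which is 1 gene. At an unadjusted p under 0.05 there were 4 of 10, against 11.6% of all genes. Bmpr1b had the smallest p, with a female minus male difference of -1.32 (SE 0.40, unadjusted p = 0.0055). Id4 was at -1.13 (unadjusted p = 0.040), Bmp7 at -0.83 (0.034) and Id2, the 1 of the 4 with a larger value in females, at 0.55 (0.038). All 4 had an adjusted p of 0.43, so none passed. With libraries weighted in the fit, Bmpr1b (-1.15, adjusted p = 0.019) and Bmp7 passed, among 675 genes in all.

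Females and males were then compared within a genotype. In SG none of the 10 passed or had an unadjusted p under 0.05, where 0.0354% and 1.82% of all genes did. Bmp4 and Smad7 were lower in all SG females than in all SG males, 2 of 10 against 12.1% of all genes without overlap. In YSGr none of the 10 passed (0.0779% of all genes did), but 5 of 10 had an unadjusted p under 0.05, against 18.2%. Id4 was lower in females by 1.41 on the log2 scale (SE 0.35, unadjusted p = 0.0014, adjusted p = 0.14), Bmpr1b by 0.95 (adjusted p = 0.15), Bmp7 by 0.79 (adjusted p = 0.16) and Id3 by 0.69 (adjusted p = 0.17). Id2 was higher by 0.54 (adjusted p = 0.16). Id4, Bmp7 and Bmpr1b did not overlap between the sexes in YSGr (3 of 10, against 20.9%). Without YSGr female 11, Id4 (-1.89, adjusted p = 0.0015) and Id3 (-0.88, adjusted p = 0.046) passed, among 1026 genes in all. With library weights Id3, Id4, Bmp7 and Bmpr1b passed, among 1820.

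The low YSGr female values were not spread evenly over the libraries. YSGr female 12 was the lowest of the 12 libraries for Id3, Id4, Bmp7, Smad6 and Smad7, 5 of 10, against 10.7% of all genes tested. In YSGr female 11 none of the 10 was the lowest, against 7.33%. Against the SG mean, Id4 was at -2.00 in YSGr female 12, -1.23 in YSGr female 10 and -0.17 in YSGr female 11. Bmp7 was at -1.43, -1.06 and -0.83 in the same libraries, so it was low in all 3.

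**Figure D3:**
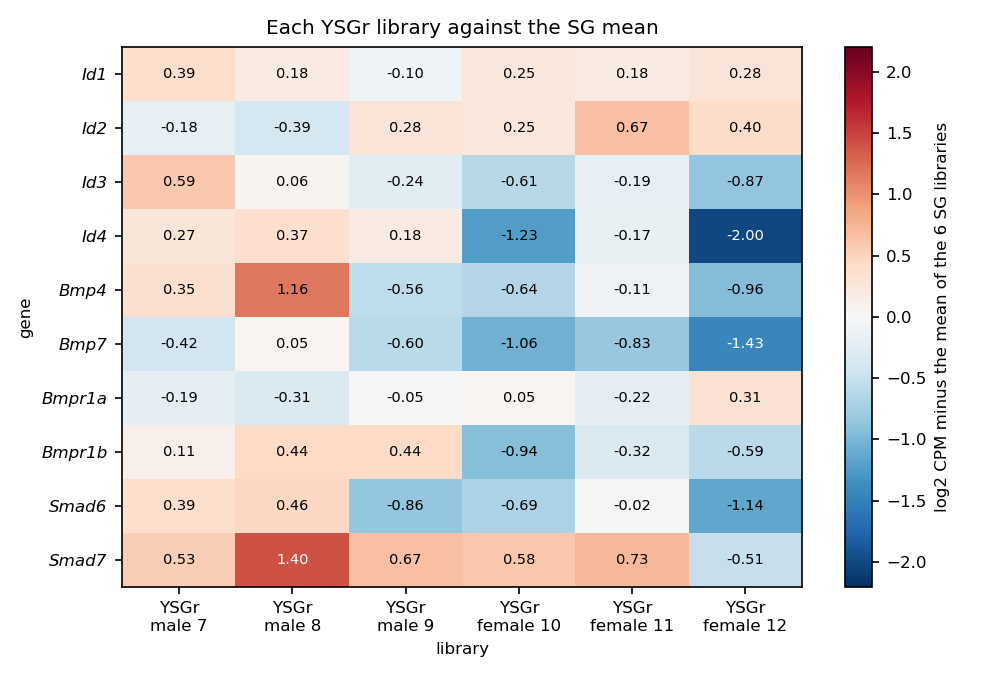
Log2 CPM of each YSGr library minus the mean of the 6 SG libraries, for the 10 genes (rows) and 6 libraries (columns); red is above and blue below the SG mean. Id4 and Bmp7 are at -2.00 and -1.43 in YSGr female 12, and Smad7 is above 0 in every library but that one.

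Markers of other cell types also differed between these libraries. The summed level of 11 astrocyte and neural stem cell markers, led by the glutamate transporter genes Slc1a3 and Slc1a2, was 2096 to 3282 CPM in SG and 2848 to 3572 CPM in YSGr males. It was 1984, 2914 and 1548 CPM in YSGr females 10, 11 and 12, so the 2 libraries lowest in Id4 were also lowest on this list. Of its 11 genes 1 rose and 3 fell over both sexes. The pericyte, fibroblast and meningeal list was at 169 to 250 CPM in SG, 178 to 313 CPM in YSGr males and 127 to 170 CPM in YSGr females, and 1 of its 10 genes rose and 2 fell. The endothelial list was at 91.6 to 155 CPM in SG and 59.8 to 101 CPM in YSGr, with 5 of 10 genes lower and none higher. Microglia and macrophage markers summed to 370 to 429 CPM in SG and 597 to 984 CPM in YSGr, with 2 of 8 genes higher and none lower. These 2, Lyz2 (mean 112 CPM in SG and 395 in YSGr) and Gpnmb (32.1 and 130), made up most of the rise. Of the 6 that did not pass, Cx3cr1 (64.1 and 58.7) and P2ry12 (31.6 and 23.1) had lower means in YSGr and the rest higher ones. Of the differentiating granule neuron list 2 of 8 rose and none fell, and of the oligodendrocyte list 1 of 8 fell. Of the choroid plexus and ependyma list 1 of 7 fell, and its summed level was 193 to 397 CPM in SG. YSGr males 7, 8 and 9 stood at 576, 114 and 140 CPM. For YSGr females 10, 11 and 12 the sums were 298, 906 and 464 CPM. Ttr, the highest gene of this list, had 399 to 2198 reads in SG. Its median was 2 reads for the YSGr males (range 0 to 4223) and 3259 for the YSGr females (973 to 6973). The part of these cells in the values of Id4, Bmp7 and the other members was not tested.

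**Figure D4:**
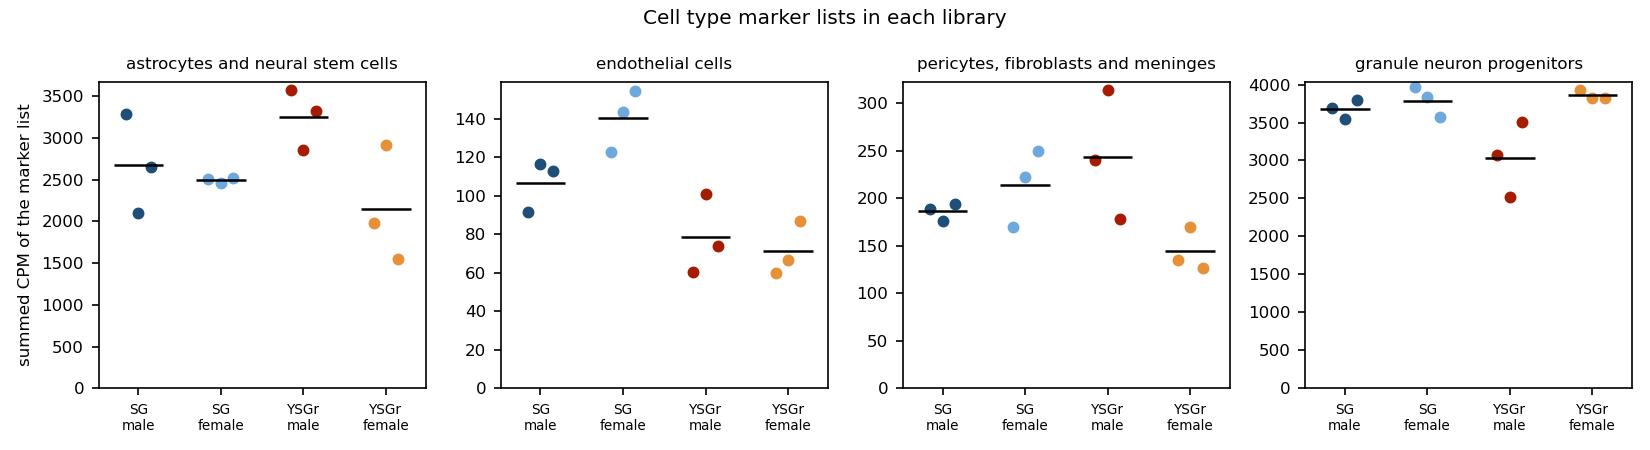
Summed CPM of 4 marker lists (vertical axis from 0) in the 12 libraries, by genotype and sex; each point is a library and each bar the mean of 3. YSGr females 10 and 12 are lowest for astrocytes and neural stem cells, at 1984 and 1548 CPM. Endothelial markers lie at 59.8 to 101 CPM in YSGr and 91.6 to 155 CPM in SG, which overlap.

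The wider pathway was described by 80 further genes in 8 roles, of which 71 were in the table and 64 were tested. Over both sexes 2 rose (3.12%) and 13 fell (20.3%), against 6.17% and 5.27% of all genes, and the median fold change was -0.05. Of the 13, 4 were E protein or bHLH genes and 1 was in the TGF-beta list, roles outside the BMP pathway itself. In females 1 rose and 5 fell (7.81%), against 1.15% and 1.87% of all genes. In males none rose and 7 fell (10.9%), against 4.44% and 3.42%. All lists were chosen with earlier results of these data known, so these shares are descriptions and not a test of the pathway.

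Among 9 tested receptors and co-receptors, 3 fell and none rose, all 3 being co-receptors. Rgma, a GPI-anchored BMP co-receptor also known for axon guidance, was at 7.57 to 7.98 log2 CPM in SG and 6.56 to 7.33 in YSGr. It fell by 0.87 (SE 0.12, adjusted p = 0.00089) and passed in females and in males as well. Its relative Rgmb fell by 0.33 (adjusted p = 0.019), a call lost without SG female 5 (adjusted p = 0.054) or SG female 6 (0.060). Eng, the endothelial co-receptor endoglin, fell by 0.92 (SE 0.15, adjusted p = 0.0018), at 4.46 to 5.04 in SG and 3.58 to 4.43 in YSGr. Of the endothelial markers given above, 5 of 10 fell as well and none rose. The part of endothelial cells in the Eng value was not tested. Rgma, Rgmb and Eng did not overlap between the genotypes, where 5.9% of all genes did not. They were named because they passed in this same comparison, so this adds no separate support.

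Of 15 tested secreted antagonists and modulators, 4 fell and 1 rose. Fstl1, a follistatin-like protein that binds BMPs, fell by 0.88 (SE 0.11, adjusted p = 0.00044), and passed in females and in males. Tsku, tsukushi, fell by 0.79 (adjusted p = 0.0026), at -1.21 in males and -0.38 in females, effects whose difference did not pass (0.83, adjusted p = 0.43). Kcp, kielin/chordin-like protein, fell by 1.34 (adjusted p = 0.0084), from 15 to 30 reads in SG to 4 to 12 in YSGr. The antagonist Chrd, chordin, which lay outside the rule for named genes and was picked after its value was seen, fell by 0.64 (adjusted p = 0.020). Grem1, the antagonist gremlin, rose by 0.99 (SE 0.29, adjusted p = 0.047). It had 12 to 46 reads in SG and 28 to 91 in YSGr, which overlap, and its call was lost in 9 of 12 fits that each left out a library, all but those without SG male 3, YSGr male 8 or YSGr female 12.

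Of the 5 tested ligands beyond Bmp4 and Bmp7 none passed, with Bmp2 nearest at 1.03 (SE 0.40, adjusted p = 0.11). It had 4 to 7 reads in SG and 49 reads in YSGr male 8, the library rich in oligodendrocyte markers, against 6 to 14 in the other YSGr libraries. Without YSGr male 8 the Bmp2 value was 0.66 (adjusted p = 0.19), and without YSGr male 9 it was 1.33 and passed (adjusted p = 0.034). Of the 4 receptor-regulated and common Smads none passed, with Smad9 at 0.30 (adjusted p = 0.39). Of 8 other transcriptional targets of BMP Smads none passed, with Zfp703 at 0.31 (adjusted p = 0.085). It passed without YSGr female 12 (0.38, adjusted p = 0.031) and with library weights (0.30, adjusted p = 0.0028), where 4976 of all genes passed. In the other 19 of 21 alternatives it did not pass, with values down to 0.23 and adjusted p up to 0.17. Ctdsp1, a phosphatase that can remove phosphate groups from Smads, fell by 0.76 (adjusted p = 0.0012) as the 1 call among 9 intracellular and membrane inhibitors.

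Among the partners that Id proteins act on, 5 genes passed. Of 9 tested E protein and bHLH genes, 4 fell and 1 rose. Olig1 fell by 0.68 (adjusted p = 0.0022) and Olig2 by 0.67 (adjusted p = 0.0076), both factors of glial and neural progenitors. Atoh1, the defining factor of granule neuron progenitors, fell by 0.59 (SE 0.12, adjusted p = 0.0076). The E protein gene Tcf3, also outside the rule and picked after its value was seen, fell by 0.45 (adjusted p = 0.0073). Neurod1, a factor of differentiating granule neurons, rose by 0.51 (SE 0.14, adjusted p = 0.038), and passed in females (0.89, adjusted p = 0.034). Its call over both sexes was lost in 7 of 12 such fits, those without SG male 2 or 3, any SG female, or YSGr female 10 or 11. Of the progenitor marker list, which includes Atoh1, 5 of 8 genes fell. In the TGF-beta branch Smad3 fell by 0.54 (adjusted p = 0.028), 1 of 5 tested, and was lost in 5 of 12 such fits, those without SG male 1 or 3, SG female 5 or 6, or YSGr female 11.

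**Figure D5:**
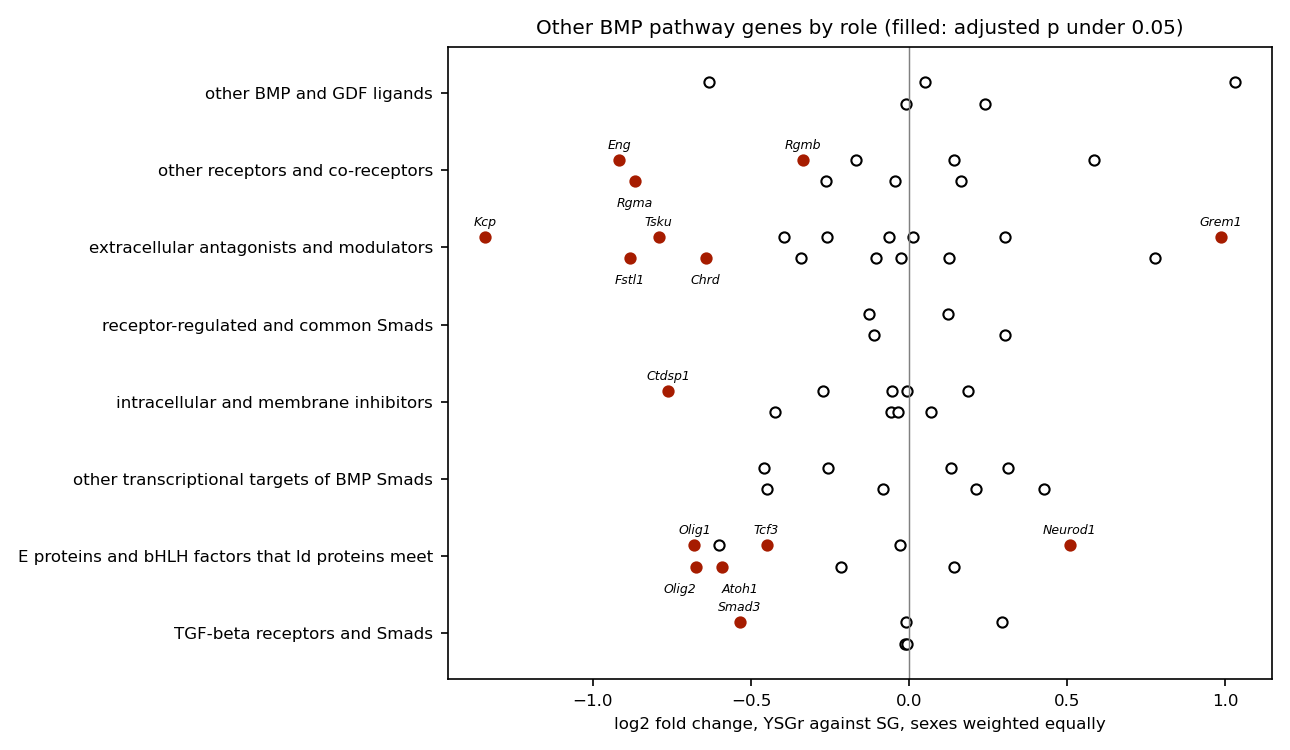
Log2 fold change of YSGr against SG over both sexes (horizontal axis) for the 64 tested pathway genes, in rows by role; each point is a gene, and filled points with names passed the threshold. Kcp is farthest to the left at -1.34, Grem1 and Neurod1 are the filled points to the right of 0, and the rows of ligands, core Smads and other targets hold none.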

How the data were processed

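Tumour RNA was sequenced on a BGISEQ-500, per the labels. The authors deposited log2 CPM values per gene. Per the submitters' processing notes they named Trimmomatic 0.33, RSEM 1.2.12, Bowtie2, Picard 1.95, edgeR 3.30.3 and the mm10 build. The sources used here do not state the annotation or the strand setting. The deposited values include a prior count averaging 2 reads, so fold changes of low genes are understated.

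From the steps between values, reads per gene were estimated, and 92.1 to 93.0% were whole within 0.02 reads. A read was worth 0.100 to 0.111 CPM, and 3 reads 0.301 to 0.333 CPM. Tests used limma 3.58.1 (R 4.3.3) on the values as deposited. A coefficient was fitted per genotype and sex over all 12 libraries, with a mean-variance trend, two-sided tests and Benjamini-Hochberg adjustment over all 14126 genes with log2 CPM above 0 in at least 3 libraries. SEs and 95% intervals are from this fit. The 22 rows named by a bare number were left out.

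The 10 genes and all lists were chosen with earlier results of these data known. Named genes were all 10 members, Yap1 and up to 3 called genes per role and direction (or the gene of lowest p). The rule also took the 3 nearest genes to each Id gene and the 2 highest markers of a list. Chrd, Tcf3, Gpnmb, Cx3cr1 and P2ry12 lay outside this rule and were picked after their values were seen. Marker lists were for progenitors and differentiating cells of the granule neuron lineage, endothelium, pericytes with fibroblasts and meninges, astrocytes with neural stem cells, the oligodendrocyte lineage, microglia with macrophages, and choroid plexus with ependyma. Levels per kilobase used GENCODE M21 exon lengths. The test was tried on simulated data. Alternatives covered the filter, the pseudocount, centring, weights, the trend, voom on estimated reads, sex left out, and each library left out.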

Additional observations from a re-analysis of the deposited data

Results flagged for a closer look

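In 5 cases 1 library stood apart from the other 5 of its genotype, with a gap to its neighbour that passed Dixon's 95% limit for 6 values. Chance flags about 1 in 20 groups, which is 2.7 of the 54 examined. SG male 2 gave 3 of them. Its Id1 value was 4.39 log2 CPM, where the rest of SG lay at 3.69 to 3.94. Its Bmpr1a value was 6.27, against 6.92 to 7.01. Its Bmpr1b value was 2.61, against 3.60 to 3.80. YSGr male 8 had Bmp2 at 2.44 log2 CPM, against -0.27 to 0.73 in the other YSGr libraries. SG male 1 had the endothelial co-receptor gene Eng at 4.46, against 4.83 to 5.04 in the other SG libraries, and its endothelial marker sum of 91.6 CPM was the lowest in SG.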

How the results depend on the processing

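Bmp7 kept its direction over both sexes and in females in all alternatives, at -0.81 to -0.60 (adjusted p 0.00039 to 0.055) and -1.27 to -0.97 (3e-05 to 0.12). No paired analysis was possible because the groups share no replicate numbers. Members called, leaving out 1 library each, numbered 0 to 2 over both sexes, in females and within YSGr between the sexes. With library weights they were 5, 8 and 4, and 2 for the difference between the sexes. Without SG male 2 and YSGr male 8 together (added after seeing the data) they were 2 in females, and with sex left out 0 over both sexes. Of all genes, 1616 were called over both sexes, 426 in females, 1110 in males, 1 for the difference, 5 between the sexes in SG and 11 in YSGr. Leaving out 1 library gave 899 to 2085, 94 to 784, 286 to 1662, 1 to 119, 5 to 5 and 9 to 1026. Library weights gave 4976, 4476, 2324, 675, 28 and 1820. Without SG male 2 and YSGr male 8 together there were 1268 in females, 245 in males and 19 between the sexes in YSGr. The cause was not tested.

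Sign changes were seen among uncalled values alone. Leaving out 1 library, the log2 fold changes ran from -0.34 to 0.093 for Bmp4 over both sexes, -0.35 to 0.11 in females and -0.57 to 0.29 in males. In males they ran from -0.081 to 0.21 for Id1, -0.29 to 0.041 for Id2, -0.25 to 0.16 for Id3, -0.078 to 0.33 for Id4, -0.28 to 0.078 for Bmpr1a and -0.070 to 0.59 for Smad6. In females Bmpr1a ran from -0.22 to 0.050. The difference between the sexes ran from -0.39 to 0.47 for Bmp4, -0.16 to 0.20 for Bmpr1a and -0.54 to 0.082 for Smad7. Between the sexes, Bmp7 ran from -0.11 to 0.27 and Id2 from -0.064 to 0.042 in SG, and Id1 from -0.048 to 0.20 in YSGr. Library weights turned the difference for Bmpr1a (0.16) and Smad7 (0.041), Id2 between the sexes in SG (0.017), and Id3 (0.13) and Id4 (-0.11) in males. Without SG male 2 and YSGr male 8 together, Bmpr1a (0.14), Id2 in SG (0.019) and, in males, Id2 (0.071), Id3 (0.082) and Id4 (-0.13) turned likewise. Smad6 and Bmp4 had the fewest reads, 5 to 21 and 8 to 47 per library; the part of counting error in their spread was not tested.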
